A study of Homo sapiens with 4 samples.

Results

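The genes described here are the AKT and phosphoinositide 3-kinase (PI3K) core genes of LASCPC-01 cells, chosen by gene symbol as AKT1, AKT2, PIK3CA, PIK3CB, PIK3R1, PIK3R2, INPP4B and PHLPP1. All 8 of the 8 genes chosen had a row among the 16376 genes listed. LASCPC-01 is a neuroendocrine prostate cancer (NEPC) cell line made by combined expression of NMYC and activated AKT1, and both groups carry these, although the labels give the genotype as WT. Cells given PBS served as the control (2 libraries, named PBS replicates 1 and 2), and the other cells were given fluoxetine, an antidepressant that blocks serotonin reuptake (2 libraries, named fluoxetine replicates 1 and 2). The labels give day 3 for all 4 samples and no dose, the study's text gives 5 µM for 48 h, and PP stands in the title of each fluoxetine sample. Nothing states that replicates came from separate cultures, so p-values measure the spread between these libraries, which may be technical.

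Class IA PI3K is a heterodimer of a catalytic and a regulatory subunit that is recruited to activated receptors and phosphorylates an inositol lipid of the plasma membrane. The lipid product draws AKT, a serine/threonine kinase, to the membrane, where it is phosphorylated and becomes active towards substrates that control survival, growth and glucose use. Lipid phosphatases such as INPP4B and the AKT phosphatase PHLPP1 oppose this signal, and prostate cancers often lose such brakes. AKT activity is set by phosphorylation, which RNA levels do not measure.

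The measure was FPKM, the fragments on a gene scaled to the gene's length and to the library's total of mapped fragments, so levels of different genes are compared per length. The read numbers solved from the FPKM gave depths of 32873603 to 34831389 reads per library, so that 1 read on 1 kilobase of gene gave 0.0287 to 0.0304 FPKM. The neuroendocrine markers NCAM1 (44.3 to 52.0 FPKM) and INSM1 (21.7 to 24.2 FPKM) were present, whereas CHGA, CHGB, NEUROD1 and SCG3 had means below 0.1 FPKM. The summed level of the 9 neuroendocrine markers examined was 78.4 and 76.9 FPKM with PBS and 69.9 and 73.9 FPKM with fluoxetine. The lower sum came mainly from NCAM1 (PBS 52.0 and 51.2, fluoxetine 44.3 and 47.1 FPKM). ENO2 was also lower (PBS 2.76 and 3.10, fluoxetine 2.07 and 2.10 FPKM). INSM1 overlapped between the groups (PBS 22.9 and 21.7, fluoxetine 22.8 and 24.2 FPKM). SYP (0.142 to 0.629 FPKM) and SCG2 (0.0625 to 0.189 FPKM) also overlapped, but both were low. Of all genes tested, 24.8% were lower with fluoxetine without overlap. PECAM1, CDH5, PTPRC, CD3E and CD14, which mark endothelium and leukocytes, had means below 0.1 FPKM. VWF, also an endothelial marker, had 0.0792 to 0.147 FPKM. The summed fibroblast markers stood at 1.93 to 2.96 FPKM, nearly all from COL1A1. Fluoxetine replicate 1 stood apart by gene length. Across 12585 genes, which do not count as independent replicates, Pearson's r between log2 length and the deviation from the mean of the 4 libraries was -0.284 there and 0.0456 to 0.188 in the other libraries.

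The 8 genes spanned a wide range of levels, and in the deposited FPKM their order was the same in all 4 libraries. AKT1 was the highest with a mean of 71.4 FPKM over the libraries, above 92.9% of the genes tested. PIK3R2 followed at 58.0 FPKM and AKT2 at 29.6 FPKM. PHLPP1 (10.1 FPKM) stood in the middle, and PIK3CB (6.46 FPKM), PIK3R1 (5.31 FPKM), INPP4B (3.62 FPKM) and PIK3CA (2.47 FPKM) were the low members. PIK3CA lay above 26.5% of the genes tested. Each gene was higher in every library than the next gene was in any library, with the closest neighbours being PIK3CB, at 6.12 FPKM or more, and PIK3R1, at 5.61 FPKM or less.

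**Figure D1:**
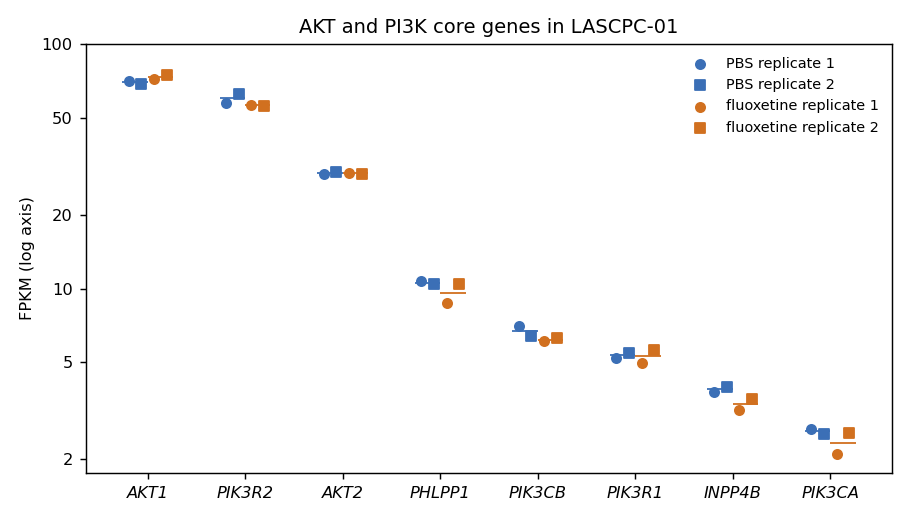
FPKM (log axis) of the 8 core genes, ordered by mean; circles and squares are replicates 1 and 2, blue is PBS, orange is fluoxetine, and short lines are group means (n = 2). AKT1, PIK3R2 and AKT2 lie between 29.3 and 74.4 FPKM and the other genes at 10.7 FPKM or below, and the gap between genes is larger than the gap between treatments.

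The gene lengths behind the FPKM bear on this order. The FPKM implied a length of 3397 bases for AKT1, 3980 for PIK3R2, 8500 for AKT2, 6254 for PHLPP1, 6222 for PIK3CB, 9637 for PIK3R1, 12820 for INPP4B and 4596 for PIK3CA, whereas all exons of GENCODE 29 joined together cover 11162 bases of AKT1, 4524 of PIK3R2 and 9494 of PIK3CA. When FPKM were recomputed with the GENCODE lengths, a choice made after seeing the data, PIK3R2 came first at 51.0 FPKM and AKT1 second at 21.7 FPKM. The other 6 genes stayed in their places. The lead of AKT1 over PIK3R2 rests on the length used, while a difference between treatments within a gene does not depend on it.

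AKT1 lies on chromosome 14 of GRCh38 from 104769349 to 104795751 on the minus strand in GENCODE 29, and AKT2 on chromosome 19 from 40230317 to 40285536, also on the minus strand. The PBS libraries held AKT1 at 70.4 and 68.8 FPKM, and the fluoxetine libraries at 72.1 and 74.4 FPKM. Both fluoxetine libraries were above both PBS libraries, by a small margin. The means were 69.6 ± 1.2 FPKM for PBS and 73.3 ± 1.63 FPKM for fluoxetine (SD, n = 2 each). The log2 fold change was 0.07 (standard error 0.07, 95% confidence interval -0.08 to 0.23, adjusted p = 0.754 from limma), which corresponds to an interval from 5.28% lower to 16.9% higher. The values are per gene symbol, so RNA from the introduced AKT1 and from the chromosomal gene cannot be told apart. By the rule for likeness, the 3 genes among 10580 whose 4 centred log2 values lay nearest to those of AKT1 were USP5 (Euclidean distance 0.0111), TDG (0.0140) and RNF20 (0.0144). With only 4 values per gene and 10580 genes compared, such nearness does not show shared control, which was not tested.

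AKT2, the isoform best known for insulin-stimulated glucose uptake, had 29.3 and 29.9 FPKM with PBS and 29.8 and 29.4 FPKM with fluoxetine. The libraries of both treatments interleaved. The means were 29.6 ± 0.448 and 29.6 ± 0.256 FPKM (SD, n = 2 each), and the 95% confidence interval of the log2 fold change ran from -0.16 to 0.16 (adjusted p = 0.99997 from limma).

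AKT1 made up 69.7% to 71.7% of the summed FPKM of AKT1 and AKT2. The AKT1 to AKT2 ratio was 2.41 and 2.30 in the PBS libraries and 2.42 and 2.53 in the fluoxetine libraries. The groups did not overlap, and the difference of 0.07 on the log2 scale had p = 0.333 in a two-sided exact permutation test, the smallest value that 2 libraries against 2 allow. After the gene length trend was removed in each library, the difference was -0.0075. With GENCODE lengths the AKT1 to AKT2 ratio was 1.24 to 1.36.

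The catalytic subunits PIK3CA (alpha isoform, chromosome 3 from 179148114 to 179240093, plus strand) and PIK3CB (beta isoform, chromosome 3 from 138652699 to 138834938, minus strand) were far lower than the AKT kinases. The alpha isoform relays signals mainly from receptor tyrosine kinases, and the beta isoform also responds to G protein-coupled receptors. PIK3CA had 2.66 and 2.55 FPKM with PBS and 2.11 and 2.57 FPKM with fluoxetine. Fluoxetine replicate 1 was the low library, and fluoxetine replicate 2 lay between the PBS libraries. The means were 2.60 ± 0.0798 and 2.34 ± 0.326 FPKM (SD, n = 2 each), and the log2 fold change was -0.16 (standard error 0.14, 95% confidence interval -0.47 to 0.16, adjusted p = 0.749 from limma). Without fluoxetine replicate 1, it was -0.020, and without fluoxetine replicate 2, -0.29. PIK3CA rested on the fewest reads of the 8 genes, 402 and 407 with PBS and 337 and 411 with fluoxetine, and 3403 of its exon bases in GENCODE 29 also belong to KCNMB3 on the opposite strand.

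PIK3CB had 7.05 and 6.40 FPKM with PBS and 6.12 and 6.26 FPKM with fluoxetine. The fluoxetine libraries were the lower pair, and PBS replicate 1 stood above the other libraries. The means were 6.73 ± 0.463 and 6.19 ± 0.0981 FPKM (SD, n = 2 each), with a log2 fold change of -0.12 (standard error 0.10, 95% confidence interval -0.34 to 0.10, adjusted p = 0.728). Without PBS replicate 1 it was -0.048.

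PIK3CB held 70.3% to 73.5% and PIK3CA 25.3% to 28.8% of the summed class I catalytic FPKM. The delta and gamma isoforms, known mainly from leukocytes, were near the floor, with 13 to 30 reads per library for PIK3CD and 2 to 6 reads for PIK3CG. The PIK3CA to PIK3CB ratio was 0.377 and 0.398 in the PBS libraries and 0.344 and 0.410 in the fluoxetine libraries, so the groups overlapped (exact permutation p = 1, two-sided). With GENCODE lengths it was 0.210 to 0.251.

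The regulatory subunits PIK3R1 (chromosome 5 from 68215720 to 68301821, plus strand) and PIK3R2 (chromosome 19 from 18153118 to 18170540, plus strand) bind and stabilise the catalytic subunits and dock them on phosphorylated receptors and adaptors. PIK3R1 had 5.22 and 5.43 FPKM with PBS and 4.98 and 5.61 FPKM with fluoxetine. The fluoxetine libraries were the lowest and the highest of the 4. The means were 5.32 ± 0.146 and 5.29 ± 0.442 FPKM (SD, n = 2 each), and the log2 fold change was -0.010 (standard error 0.11, 95% confidence interval -0.25 to 0.23, adjusted p = 0.987 from limma).

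PIK3R2 had 57.3 and 62.6 FPKM with PBS and 56.4 and 55.8 FPKM with fluoxetine. The fluoxetine libraries were both lower, and PBS replicate 2 was the high library. The means were 59.95 ± 3.76 and 56.1 ± 0.477 FPKM (SD, n = 2 each), with a log2 fold change of -0.09 (standard error 0.07, 95% confidence interval -0.26 to 0.07, adjusted p = 0.703). Without PBS replicate 2, it was -0.031. In GENCODE 29, 3947 of the 4524 exon bases of PIK3R2 are shared on the same strand with AC007192.1. How the counting divided such reads is not given in the sources used here.

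In the deposited FPKM, PIK3R2 was by far the main class IA regulatory transcript. It held 89.0% to 90.8% of the summed FPKM of PIK3R1, PIK3R2 and PIK3R3, while PIK3R1 held 7.85% to 8.95%. The unknown division of reads shared with AC007192.1 bears on these shares, and on the ratios and sums given next. The PIK3R1 to PIK3R2 ratio was 0.0911 and 0.0867 with PBS and 0.0883 and 0.101 with fluoxetine (exact permutation p = 0.667, two-sided), and 0.0882 to 0.102 with GENCODE lengths. The summed regulatory FPKM exceeded the summed class IA catalytic FPKM 6.48 and 7.66 times in the PBS libraries and 7.47 and 7.05 times in the fluoxetine libraries.

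**Figure D2:**
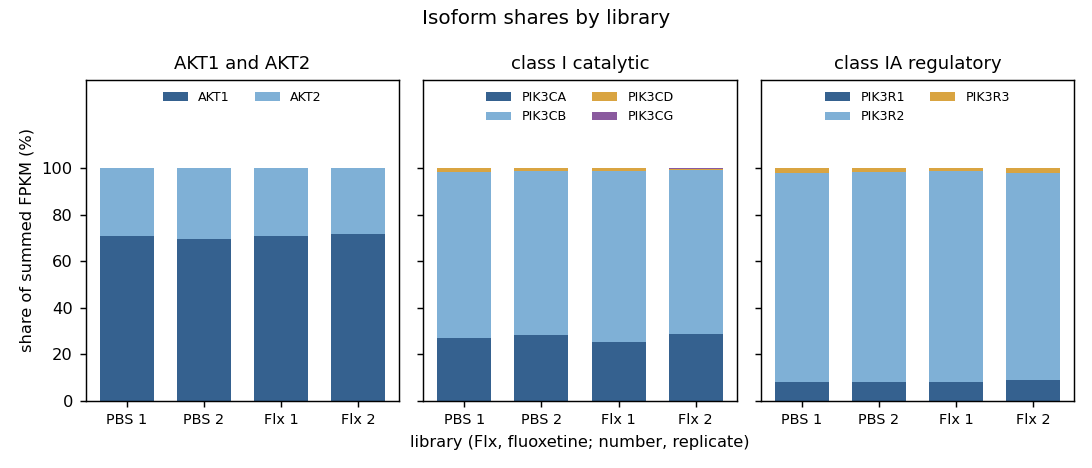
Share of summed FPKM (%) taken by each gene within AKT1 and AKT2, the class I catalytic subunits and the class IA regulatory subunits in each of the 4 libraries. AKT1 (69.7% to 71.7%), PIK3CB (70.3% to 73.5%) and PIK3R2 (89.0% to 90.8%) lead in every library, with PBS and with fluoxetine.

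INPP4B (chromosome 4 from 142023160 to 142847432, minus strand) removes a phosphate from a lipid product of PI3K and is often lost in prostate cancer. It had 3.79 and 3.96 FPKM with PBS and 3.20 and 3.54 FPKM with fluoxetine. The groups did not overlap, with fluoxetine the lower and its replicate 1 the lowest library. The means were 3.88 ± 0.120 and 3.37 ± 0.241 FPKM (SD, n = 2 each). The log2 fold change of -0.20 (standard error 0.12, 95% confidence interval -0.46 to 0.06, adjusted p = 0.624 from limma) was the largest in size among the 8 genes as reported. It was -0.13 without fluoxetine replicate 1 and -0.07 after the gene length trend was removed.

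PHLPP1 (chromosome 18 from 62715450 to 62980433, plus strand) dephosphorylates AKT at the hydrophobic motif. It had 10.7 and 10.4 FPKM with PBS and 8.74 and 10.4 FPKM with fluoxetine. Fluoxetine replicate 1 was low, and fluoxetine replicate 2 was level with PBS replicate 2. The means were 10.6 ± 0.192 and 9.59 ± 1.2 FPKM (SD, n = 2 each), and the log2 fold change was -0.14 (standard error 0.10, 95% confidence interval -0.36 to 0.07, adjusted p = 0.668). Without fluoxetine replicate 1, it was -0.018, and without fluoxetine replicate 2, -0.27.

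None of the 8 genes passed an adjusted p of 0.05 in limma, where 30 of the 12663 genes tested did (0.237%, 0.213% lower and 0.0237% higher in fluoxetine). None of the 8 had an unadjusted p under 0.05, as 8.51% of the genes tested had. With limma voom on the recovered reads, none passed after adjustment and 1, INPP4B, had an unadjusted p under 0.05. In that fit, 1481 of the 14038 genes tested did. The groups did not overlap, with fluoxetine lower, for 3 of the 8 genes (PIK3CB, PIK3R2 and INPP4B), as for 24.8% of the genes tested, and with fluoxetine higher for 1 (AKT1), as for 16.7%. The median log2 fold change was -0.11 over the 8 genes and -0.02 over all genes tested. The groups of 2 leave intervals that, for AKT1, AKT2, PIK3R1 and PIK3R2, end within 0.26 of 0 on the log2 scale. For INPP4B and PIK3CA, the intervals reach -0.46 and -0.47.

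**Figure D3:**
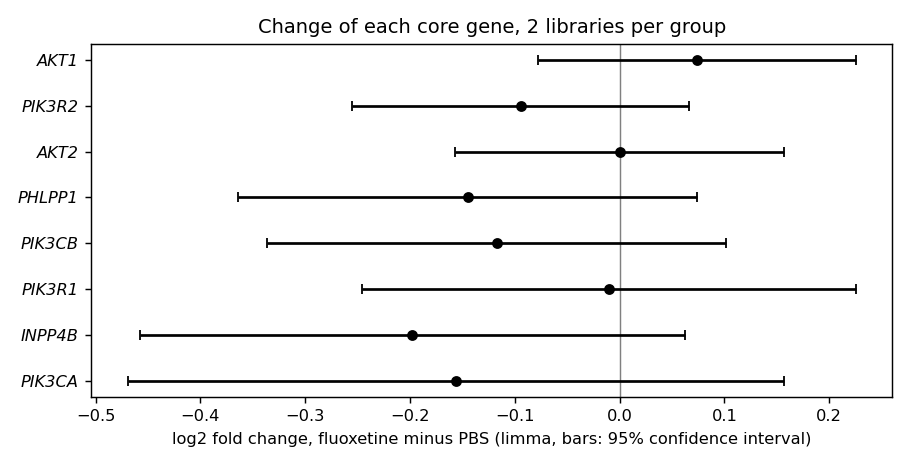
Log2 fold change of each core gene, fluoxetine minus PBS, on log2(FPKM + 0.1), with bars for the 95% confidence interval from limma (2 libraries per group). All 8 intervals include 0, from the narrowest around AKT1 (-0.08 to 0.23) to the widest around PIK3CA (-0.47 to 0.16).

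Replicates differed by more than counting error in part of these genes. In the PBS pair, 2 of the 8 genes (PIK3CB and PIK3R2) differed by over 2 counting standard errors. In the fluoxetine pair, 5 did (AKT1, PIK3CA, PIK3R1, INPP4B and PHLPP1). Such differences were general in these libraries. Across the genes tested, reads of replicates gave a chi-square per degree of freedom of 8.78 (PBS) and 10.7 (fluoxetine). The share of all genes beyond 2 counting standard errors was not computed. PHLPP1 differed by 0.26 on the log2 scale between the fluoxetine replicates, where counting 1902 and 2273 reads gives a standard error of 0.045. Fluoxetine replicate 1 was the lowest of the 4 libraries for 5 of the 8 genes (PIK3CA, PIK3CB, PIK3R1, INPP4B and PHLPP1). Of all genes tested, it was the lowest for 33.0%. Without that library the median log2 fold change of the 8 genes was -0.019, and that of all genes tested in that fit was -0.017.

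Gene length moved with these differences. Over the 12585 tested genes with an implied length, the median log2 fold change was 0.05 among the shortest genes (184 to 2780 bases), -0.02 among the middle ones (2781 to 5200 bases) and -0.08 among the longest (5201 to 41648 bases), with 4195 genes in each. By their implied lengths, PIK3CB, PIK3R1, INPP4B, PHLPP1 and AKT2 belong to the longest, and AKT1, PIK3R2 and PIK3CA to the middle. After the trend was removed in each library, the log2 fold change moved from -0.20 to -0.07 for INPP4B, from -0.12 to -0.060 for PIK3CB, from -0.14 to -0.09 for PHLPP1, and became 0.09 for both AKT2 and PIK3R1. It was then 0.08 for AKT1, -0.07 for PIK3R2 and -0.12 for PIK3CA. The median over the 8 genes was then -0.07, and that over the 12585 genes was -0.0018.

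**Figure D4:**
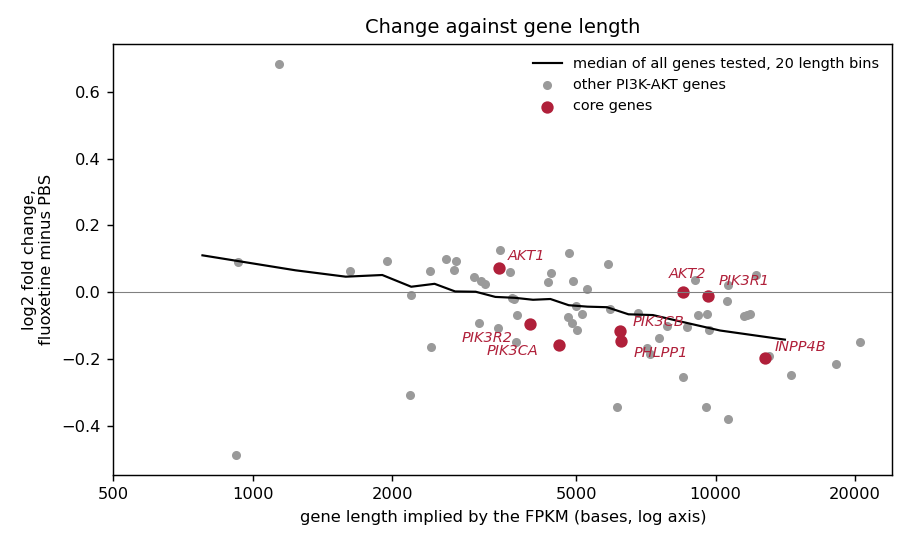
Log2 fold change, fluoxetine minus PBS, against the gene length implied by the FPKM (bases, log axis) for the core genes (red) and other PI3K-AKT genes (grey), with the median of all genes tested in 20 length bins (black line). The line falls with length, and INPP4B, the longest core gene at 12820 bases, is also the lowest at -0.20.

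Of 68 other genes of the pathway, 61 had a mean of at least 0.1 FPKM and were tested. None passed an adjusted p of 0.05 in limma, and 6 had an unadjusted p under 0.05, where 8.51% of all genes tested had. Their median log2 fold change was -0.06, with 38 values below 0 (56.5% of all genes tested were below 0) and 23 above. Without overlap between the groups, 15 genes were lower, where 24.8% of all genes tested were, and 5 were higher, where 16.7% were. After the length trend was removed, the median was 0.0028 over 59 genes, since HSP90AA1 and HSP90AB1 had no recovered length. In that limma fit, 2 of the 59 had an unadjusted p under 0.05, where 999 of all 12585 genes had. Among genes named below, the log2 fold change was then -0.065 for INPP4A and WNK1, -0.11 for FOXO3 and GAB2 and -0.0090 for RICTOR. PIK3C2A stood at -0.16, PIK3R3 at -0.29 and PHLDA2, larger in size than as reported, at -0.58. Values for the genes named below carry the adjusted p of the same fit.

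Among the other PI3K subunits, PIK3R5, the regulatory partner of the gamma isoform, had 46.7 to 53.9 FPKM in the 4 libraries, in contrast to the 0.0071 to 0.0213 FPKM of PIK3CG itself, and a log2 fold change of -0.07 (adjusted p = 0.787). PIK3R3 had 1.43 and 1.14 FPKM with PBS and 0.757 and 1.28 FPKM with fluoxetine (log2 fold change -0.34, adjusted p = 0.664), and without fluoxetine replicate 1 the value was -0.0012. The class II kinase PIK3C2A had 9.03 and 10.02 FPKM with PBS and 7.67 and 8.28 FPKM with fluoxetine (log2 fold change -0.25, adjusted p = 0.535). PIK3R4, a subunit of the class III complex used in autophagy and endosome traffic, had a value of -0.11 (adjusted p = 0.690). All 7 tested genes of these PI3K groups had values below 0, where 56.5% of all genes tested had. None was called, where 0.237% of all genes tested were.

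Among the phosphatases outside the 8 core genes, 9 of the 12 had log2 fold changes above 0, where 5507 of all 12663 genes tested had. None was called, where 0.237% of all genes tested were. The core phosphatases INPP4B and PHLPP1 were both below 0. INPPL1, which encodes the lipid phosphatase SHIP2, was the most abundant at 103.5 to 116.7 FPKM, with a log2 fold change of 0.0090 (adjusted p = 0.984). INPP4A, the paralog of INPP4B, had 6.71 and 6.50 FPKM with PBS and 5.08 and 6.35 FPKM with fluoxetine (-0.21, adjusted p = 0.613), again with fluoxetine replicate 1 the lowest. INPP5E had a log2 fold change of 0.13 (adjusted p = 0.739). Of the 6 genes for kinases that phosphorylate AKT and their partners, 3 had values above 0 and 3 below. MLST8, shared by both mTOR complexes, had 39.4 to 42.1 FPKM (0.02, adjusted p = 0.944), PRR5, a subunit of mTOR complex 2, had a log2 fold change of 0.10 (adjusted p = 0.7002), and RICTOR, its defining scaffold, had -0.11 (adjusted p = 0.787).

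All 5 tested adaptors had log2 fold changes below 0, where 56.5% of all genes tested had. None was called, where 0.237% of all genes tested were. GAB2, a docking adaptor for PI3K, was the most abundant, with 22.2 and 22.9 FPKM under PBS and 19.5 and 20.1 FPKM under fluoxetine (-0.19, adjusted p = 0.541). SHC1 had -0.11 (adjusted p = 0.688). The insulin receptor substrates IRS1, IRS2 and IRS4, which carry the insulin signal to PI3K, had 0 to 21 reads per library and were below the filter.

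Of 15 tested genes whose products bind PI3K or AKT, 9 had values below 0 and 6 above, where 56.5% of all genes tested were below. None was called, where 0.237% of all genes tested were. TCL1B, a small AKT-binding coactivator, had 1.04 and 0.907 FPKM with PBS and 1.69 and 1.56 FPKM with fluoxetine. The difference, 0.68 on the log2 scale with a standard error of 0.18 (adjusted p = 0.276 from limma), was the highest of the list and rested on 36 to 67 reads per library. PHLDA2, which binds membrane phosphoinositides, had 18.2 and 20.9 FPKM with PBS and 15.99 and 12.1 FPKM with fluoxetine. The difference was -0.49 on the log2 scale with a standard error of 0.12 (adjusted p = 0.249), the lowest of the list. The chaperone HSP90AB1, whose product stabilises AKT, had 1247 to 1345 FPKM and a log2 fold change of 0.03 (adjusted p = 0.958).

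Of 16 direct AKT substrates, 11 had values below 0 and 5 above, where 56.5% of all genes tested were below. None was called, where 0.237% of all genes tested were. FOXO3, a transcription factor that AKT keeps out of the nucleus, had 6.23 and 6.11 FPKM with PBS and 5.03 and 5.33 FPKM with fluoxetine (-0.25, adjusted p = 0.541). WNK1 had -0.19 (adjusted p = 0.604). CDKN1A, the cell cycle inhibitor p21, was the most abundant substrate at 121.3 to 132.2 FPKM, with a log2 fold change of 0.07 (adjusted p = 0.785).

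The direction of 6 of the 8 core genes was the same under all 15 alternatives to the reported fit, above 0 for AKT1 and below 0 for PIK3CA, PIK3CB, PIK3R2, INPP4B and PHLPP1, and in none of these fits did a core gene pass an adjusted p of 0.05. The smallest adjusted p of a core gene in any of them was 0.375, for PHLPP1 without fluoxetine replicate 2. AKT2 and PIK3R1 changed sign, AKT2 with median centring, without PBS replicate 2, without fluoxetine replicate 2 and with the length trend removed. Not all of the 15 could change a direction. Dropping or raising the filter, omitting the variance trend and adding the replicate block left each fold change as it was. For AKT1, PIK3CB, PIK3R2 and INPP4B, whose groups did not overlap, leaving out a library could not reverse the direction either.

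**Figure D5:**
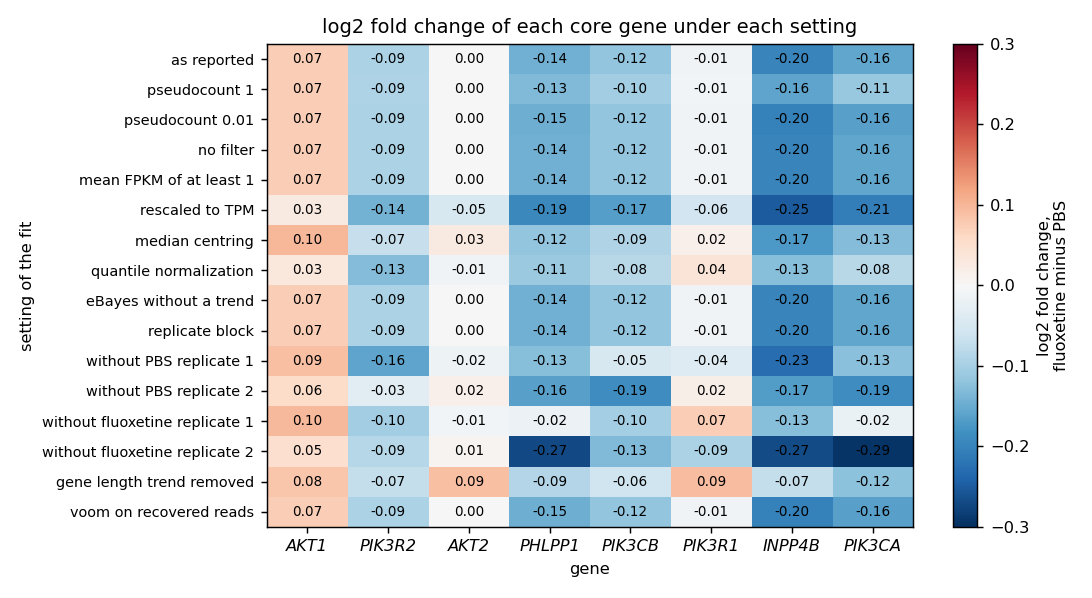
Log2 fold change of each core gene, fluoxetine minus PBS, in the reported fit and under 15 alternatives (colour and printed value). AKT1 stays between 0.03 and 0.10, and PIK3CA and PHLPP1 move most when a fluoxetine library is left out, to -0.29 and -0.27 without replicate 2 and to -0.02 without replicate 1.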

How the data were processed

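RNA of LASCPC-01 cells was sequenced in 2 PBS and 2 fluoxetine libraries. The values are FPKM that the authors deposited for 16376 genes in each library. The submitters' processing notes name fastp, HISAT2, HTSeq and GRCh38, without versions, and the annotation is not given in the sources used here. The labels name a stranded TruSeq kit and the study's methods a VAHTS kit.

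The study's methods name a test on counts. FPKM are not counts, so groups were compared on the scale log2(FPKM + 0.1) with limma 3.58.1 in R 4.3.3 (lmFit and trended eBayes). The 12663 genes whose mean reached 0.1 FPKM were tested, p-values were adjusted by Benjamini-Hochberg, and the threshold was 0.05. This scale understates changes of low genes. Ratios were tested by exact permutation. Reads were solved as the smallest whole numbers whose ratios gave the FPKM ratios (searched up to 30000) and a gene length of whole bases. This covered 99.4% of values above 0, with depth set by 75 genes whose length equalled the GENCODE 29 exon length. True reads can be multiples, and the implied length is then the same multiple. The groups by length and the values with the length trend removed rest on the smallest solution. Counting errors cover sampling of reads only. Replicate log2 values had r = 0.993 (PBS) and 0.994 (fluoxetine), and their reads differed by more than sampling noise (chi-square per degree of freedom 8.78 and 10.7). Loci are from GENCODE 29.

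The fit was repeated with a pseudocount of 1 or 0.01, without the filter, with a minimum mean of 1 FPKM, on TPM, with median centring, quantile normalization, eBayes without a trend or a replicate block, with each library left out, with the gene length trend removed (lowess, span 0.3), and by voom on genes with at least 10 recovered reads. GENCODE lengths were added after seeing the data. Genes named were the 8 members and, in each role group of the pathway list, the most abundant and the 2 with the largest change among those with a mean of 1 FPKM or more, with any called gene, and for AKT1 the 3 nearest genes. PIK3CD, PIK3CG, IRS1, IRS2 and IRS4 were named after their values were seen. A gene of the pathway list and a marker are not reported here. Members and lists were chosen with earlier results of these data known. Scripts were tested on simulated data. Tables and figures were made in Python 3.11.15 with pandas 2.3.3, scipy 1.17.1 and matplotlib 3.10.9.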

Additional observations from a re-analysis of the deposited data

How the results depend on the processing

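The count of 30 genes called became 0 without the filter on low values and 0 without the variance trend (1175 and 933 genes at an unadjusted p under 0.05), 16 with quantile normalization, 51 with voom on recovered reads and 3 to 17 with a library left out (8 and 3 without PBS replicates 1 and 2, 17 and 12 without fluoxetine replicates 1 and 2). With the replicate number as a block it was 64. Libraries that share a number deviated from their group means with a correlation of 0.035 across genes and of 0.101 across the 5576 genes with a mean of at least 10 FPKM. Nothing in the labels ties the numbers to a shared source, and with 2 pairs they were not taken to pair the libraries. The block called none of the 8 core genes. The median log2 fold change of the 8 genes was -0.11 to -0.019 with a library left out, the latter without fluoxetine replicate 1. The AKT1 to AKT2 difference was -0.0075 with the length trend removed. With a library left out, the PIK3CA to PIK3CB difference was -0.17 to 0.083 and the PIK3R1 to PIK3R2 difference -0.0097 to 0.18. Median centring gave 0.026 for AKT2 and 0.016 for PIK3R1. Quantile normalization gave 0.039 for PIK3R1, -0.067 for HSP90AB1, -0.059 for INPPL1 and -0.0037 for MLST8. TPM gave -0.022 for HSP90AB1, -0.039 for INPPL1 and -0.023 for MLST8. Removal of the length trend gave 0.090 for AKT2 and 0.093 for PIK3R1. With a library left out, log2 fold changes ranged from -0.015 to 0.015 for AKT2, -0.094 to 0.073 for PIK3R1, -0.028 to 0.081 for HSP90AB1, -0.013 to 0.27 for INPP5E, -0.077 to 0.10 for INPPL1, -0.013 to 0.061 for MLST8, -0.15 to 0.0016 for PIK3R5 and -0.24 to 0.019 for RICTOR, where a lone library is assumed to vary like the other group. Under GENCODE lengths, added after seeing the data, AKT1 fell below PIK3R2. The cause of these changes was not tested. HSP90AB1 had no recovered length or reads and no value under the alternatives that need them. With 2 libraries per group, an exact permutation test cannot go below p = 0.333, and PIK3CA, at 337 to 411 reads, had the largest counting error of the 8 genes.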
